A study of Mus musculus with 6 samples.

Results

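The receptors through which dopamine, serotonin and noradrenaline act in the cortex were examined in mice that overexpress *Shank3*, a scaffold protein of excitatory synapses, in the tissue of the medial prefrontal cortex (mPFC). The group comprised 10 genes, the dopamine receptors *Drd1*, *Drd2*, *Drd4* and *Drd5*, the serotonin receptors *Htr1a*, *Htr1f*, *Htr2a* and *Htr2c*, and the adrenergic receptors *Adra1a* and *Adra2a*. They were taken by symbol from the 18254 genes of the normalized count table, all 10 were present, and all 10 passed the filter (mean over the 6 libraries of 5 normalized counts or more). The table holds 3 libraries of transgenic (TG) mice that carry *Shank3* fused to the fluorescent protein EGFP, named TG-1 to TG-3, and 3 of wild-type (WT) littermates, named WT-1 to WT-3. Both groups were male, aged 10 to 12 weeks, on the C57BL/6J background, and received no treatment that the labels name. The mPFC of 2 mice was pooled for each library, so each replicate stands for a pool.

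The 3 transmitters reach the cortex from small groups of neurons in the midbrain and brainstem, so the cortex holds the RNA of the receptors, while that of the enzymes that make the transmitters is mostly in cell bodies elsewhere. All 10 genes encode G protein-coupled receptors. D1-like receptors (*Drd1*, *Drd5*) raise cyclic AMP through Gs and Golf, whereas D2-like (*Drd2*, *Drd4*), 5-HT1 (*Htr1a*, *Htr1f*) and alpha-2 receptors (*Adra2a*) lower it through Gi/o, and 5-HT2 (*Htr2a*, *Htr2c*) and alpha-1 receptors (*Adra1a*) act on phospholipase C through Gq. In the prefrontal cortex, D1-like and alpha-2A receptors are known for their part in working memory, and 5-HT2A receptors on pyramidal neurons are the target of serotonergic psychedelics.

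*Shank3*, the transgene, had 17470, 19003 and 16310 normalized counts in TG and 8374, 8173 and 6791 in WT, so the libraries matched their genotype labels. Library sums were 28363967 to 29447717 normalized counts. Markers of cortical excitatory neurons were abundant, with 102685 to 127170 normalized counts of *Camk2a* and 39218 to 45669 of *Slc17a7*, a vesicular glutamate transporter. Of 15 marker lists of cell types, those of myelinating oligodendrocytes and leptomeninges separated the genotypes most. Of the 10 oligodendrocyte genes, 9 were lower in TG at an unadjusted p-value under 0.05 (limma), with a summed level of 45391 to 59268 in TG and 65874 to 78089 in WT. Of the 10 leptomeningeal genes 4 were higher in TG by the same measure, with a summed level of 4575 to 5333 in TG and 3946 to 4419 in WT. The 13 other lists had median log2 fold changes between -0.13 and 0.38, with 4 of their 117 tested genes under an unadjusted p-value of 0.05, and 0 genes of any list passed after adjustment. TG-2 stood apart by olfactory bulb genes (summed level 3638 against 1606 to 2185 in the other libraries), and TG-3 and WT-3 stood apart from the other 4 libraries, with 273 of 16714 tested genes (1.63%) higher and 93 (0.556%) lower by at least 1 on the log2 scale at number 3 in both genotypes. In bulk tissue, fewer cells of a type and less RNA per cell cannot be told apart, and the part of these cell types in the results on the receptors was not tested.

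None of the 10 receptor genes passed the test between *Shank3* TG and WT. With limma and Benjamini-Hochberg adjustment over 16714 genes, 0 of the 10 passed an adjusted p-value of 0.05, as did 0% of all tested genes. *Shank3* itself did not pass, with a log2 fold change of 1.18 and an adjusted p-value of 0.0643 in limma's test. The study, with DESeq2 and an empirically estimated null, did report differing genes, *Shank3* among them. Without adjustment, 0 of the 10 passed 0.05, against 2.01% of all tested genes (0.933% higher and 1.08% lower in TG). Of the 10 log2 fold changes, 5 were above and 5 below 0, with a median of 0.03 (all tested genes, 0.00). In 0 of the 10 genes did the 3 TG libraries lie on one side of the 3 WT libraries, against 6.02% of all tested genes (2.91% with TG above and 3.12% with TG below). For a single gene, the smallest two-sided p-value of an exact permutation test with 3 libraries a group is 0.1.

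The levels of the 10 genes spanned a wide range, with *Htr2a* and *Htr1a* at the top and *Drd2* and *Drd4* at the bottom. Since longer transcripts give more reads, levels were compared per kilobase of merged exons. *Htr2a* had a mean of 118 ± 10.6 normalized counts per kb over the 6 libraries (SD, n = 6) and *Htr1a* ranged from 87.8 to 105, and these neighbours overlapped. Below the range of *Htr1a* came *Drd1* with 65.7 ± 13.2, *Adra2a* with 57.8 ± 5.81, *Adra1a* with 52.6 ± 5.82 and *Htr2c* with 48.3 ± 24.4 normalized counts per kb, each overlapping its neighbour. *Htr1f* (31.8 ± 3.95) overlapped *Htr2c*, whose range was wide. *Drd5* (20.6 ± 2.31) lay between *Htr1f* and *Drd2* (5.61 ± 2.07) with no overlap of its range with either, and *Drd2* overlapped *Drd4* (2.67 ± 0.482). The first place of *Htr2a* and the last 4 places were the same per kb of longest transcript or of coding sequence. *Adra1a* and *Htr2c*, which have 6 and 7 annotated transcripts, followed *Adra2a* by merged exons, and their levels were 107 and 92.3 normalized counts per kb of longest transcript, in the second and the fourth place.

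**Figure D1:**
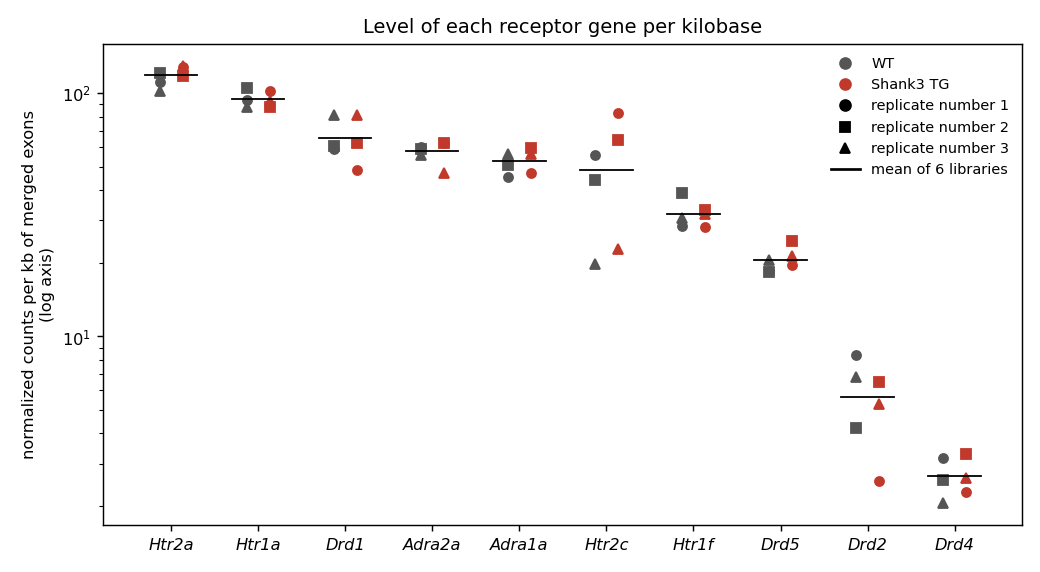
Normalized counts per kilobase of merged exons (log axis) for the 10 receptor genes in order of their mean, with WT libraries in grey, *Shank3* TG libraries in red, the replicate number as the symbol and the mean of 6 libraries as a line. The ranges of *Drd5* and *Drd2* do not overlap, and *Htr2c* has the widest range of the 10, from 19.9 to 82.9.

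Among the dopamine receptors, *Drd1* carried most of the signal. *Drd1* (ENSMUSG00000021478, GRCm38 chr13:54051183-54055705) encodes the main D1-like receptor of cortical and striatal neurons and had 176, 228 and 296 normalized counts in TG-1, TG-2 and TG-3 and 215, 219 and 295 in WT-1, WT-2 and WT-3. The libraries numbered 3 were the highest of both genotypes, and the groups covered nearly the same range. The log2 fold change (log2FC) of TG against WT was -0.08, its standard error (SE) 0.21 and its 95% confidence interval from -0.57 to 0.41. *Drd5* (ENSMUSG00000039358, chr5:38319367-38322518), the other D1-like receptor, had 62.1, 77.8 and 67.6 normalized counts in TG and 58.8, 58.1 and 64.7 in WT. Each TG library was above the WT library of the same number, but TG-1 was below WT-3, so that the groups overlapped. Its log2FC was 0.18 (SE 0.17, 95% confidence interval from -0.21 to 0.58), and the unadjusted p-value in limma's test was 0.308. The exons of *Drd5* share 1531 bases with those of *Gm26560* on the other strand. The libraries were made with a stranded kit, and *Gm26560* is not among the genes used here.

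The D2-like receptor genes had the lowest counts of the 10. *Drd2* (ENSMUSG00000032259, chr9:49340627-49408177), which also serves as an autoreceptor of dopamine neurons, had 6.47, 16.5 and 13.4 normalized counts in TG and 21.3, 10.7 and 17.4 in WT. TG-1 was the lowest and WT-1 the highest library, and the others were mixed. The log2FC of -0.45 had an SE of 0.44, and its interval from -1.47 to 0.57 spans a 0.362-fold to a 1.49-fold level in TG. *Drd4* (ENSMUSG00000025496, chr7:141292006-141296464) had 7.78, 11.1 and 8.84 normalized counts in TG and 10.7, 8.67 and 6.98 in WT. Its groups overlapped throughout, with a log2FC of 0.07 (SE 0.37, interval from -0.79 to 0.94). *Drd2* and *Drd1* are also abundant in striatal neurons. The summed level of 12 striatal genes was 4610 to 5169 in TG and 4386 to 4980 in WT, with 8 log2FC values above 0, 4 below and a median of 0.07. Of the 12, 1 did not overlap between the genotypes, *Adora2a* with 45.8 to 50.6 normalized counts in TG and 55.6 to 66.0 in WT, against 6.02% of all tested genes.

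The serotonin receptors held the largest share of the 10 genes. *Htr2a* (ENSMUSG00000034997, chr14:74640840-74709494) had 720, 660 and 727 normalized counts in TG and 626, 681 and 571 in WT. TG-1 and TG-3 were above every WT library, whereas TG-2 was below WT-2, so that the groups overlapped by these 2 libraries. Its log2FC was 0.17 (SE 0.10, 95% confidence interval from -0.06 to 0.39). The unadjusted p-value in limma's test, 0.123, was the smallest of the 10 genes, and the adjusted p-value was 1.00. *Htr1a* (ENSMUSG00000021721, chr13:105443639-105448122), an inhibitory receptor of pyramidal neurons and the autoreceptor of serotonin neurons, had 460, 394 and 417 normalized counts in TG and 419, 472 and 394 in WT. The groups covered nearly the same range. Its log2FC of -0.01 had one of the narrower intervals, from -0.27 to 0.24, which is a 0.829-fold to a 1.18-fold level in TG. *Htr1f* (ENSMUSG00000050783, chr16:64924729-65105854), a receptor of the same Gi-coupled class, had 72.6, 85.2 and 82.2 normalized counts in TG and 73.2, 100 and 79.2 in WT, with a log2FC of -0.06 (SE 0.18). WT-2 was the highest library and the other 5 lay close together.

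*Htr2c* (ENSMUSG00000041380, chrX:146962513-147197277), a Gq-coupled receptor whose RNA is known to be edited, varied most. It had 773, 600 and 213 normalized counts in TG-1, TG-2 and TG-3 and 519, 411 and 186 in WT-1, WT-2 and WT-3. The libraries numbered 3 were the lowest of both genotypes, and at each number the TG library was the higher, by 1.49-fold, 1.46-fold and 1.15-fold. The log2FC of 0.44 had an SE of 0.53 and a 95% confidence interval from -0.78 to 1.66, and the unadjusted p-value in limma's test was 0.431.

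The adrenergic receptors *Adra1a* and *Adra2a* overlapped in level per kb of merged exons, whereas *Adra1a* was the higher per kb of longest transcript (107 against 57.8) and of coding sequence (328 against 200.4). *Adra1a* (ENSMUSG00000045875, chr14:66635251-66771168), an excitatory Gq-coupled receptor, had 412, 522 and 491 normalized counts in TG and 394, 443 and 493 in WT. WT-3 and TG-3 were nearly equal, and the groups overlapped. Its log2FC was 0.10 (SE 0.13, 95% confidence interval from -0.20 to 0.40). *Adra2a* (ENSMUSG00000033717, chr19:54044151-54048982), the receptor at which guanfacine acts, had 301, 303 and 228 normalized counts in TG and 290, 286 and 270 in WT. TG-3 was the lowest library, and TG-1 and TG-2 were above all WT libraries. The log2FC was -0.04 (SE 0.14, interval from -0.35 to 0.28), and it was 0.10 without TG-3.

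**Figure D2:**
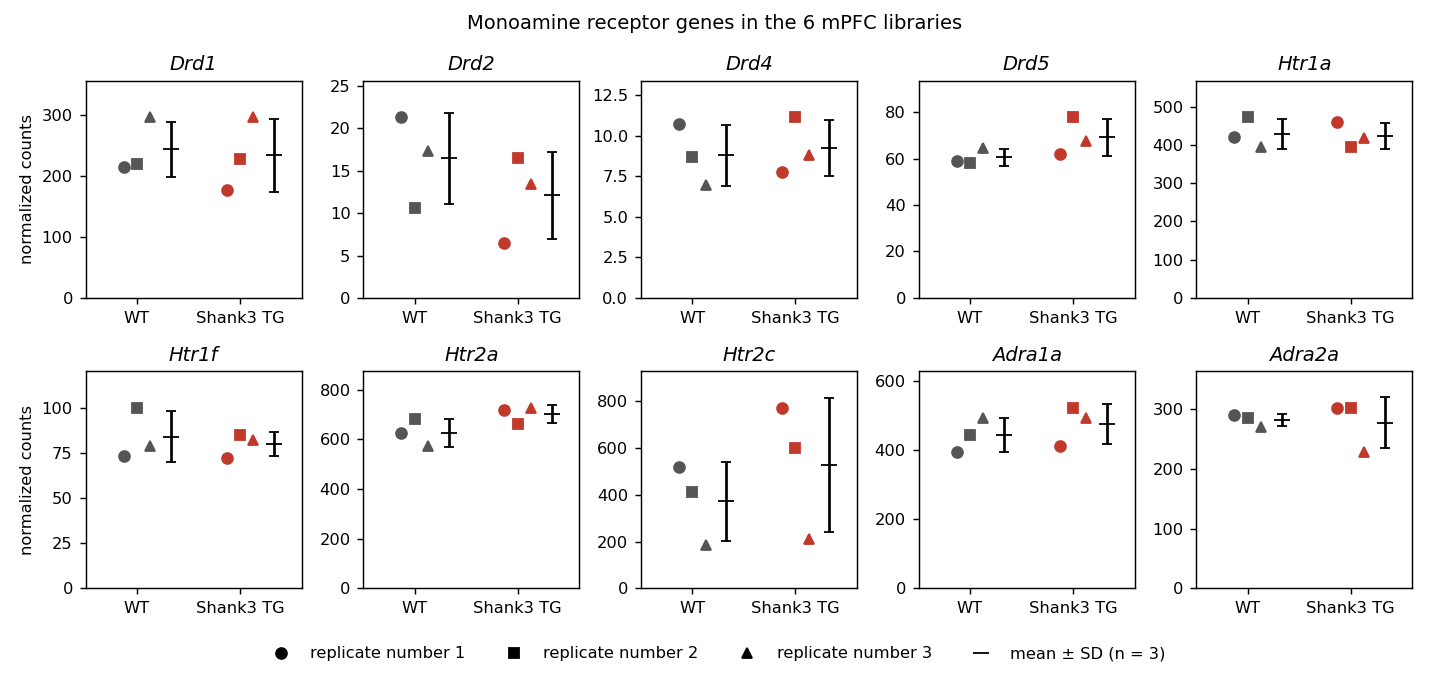
Normalized counts (linear axes from 0) of each receptor gene in the 3 WT (grey) and 3 *Shank3* TG (red) libraries, with the replicate number as the symbol and the mean ± SD of 3 libraries beside the points. The groups overlap in each of the 10 genes, and the triangles of number 3 are the lowest points for *Htr2c* and the highest WT and TG points for *Drd1*.

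**Figure D3:**
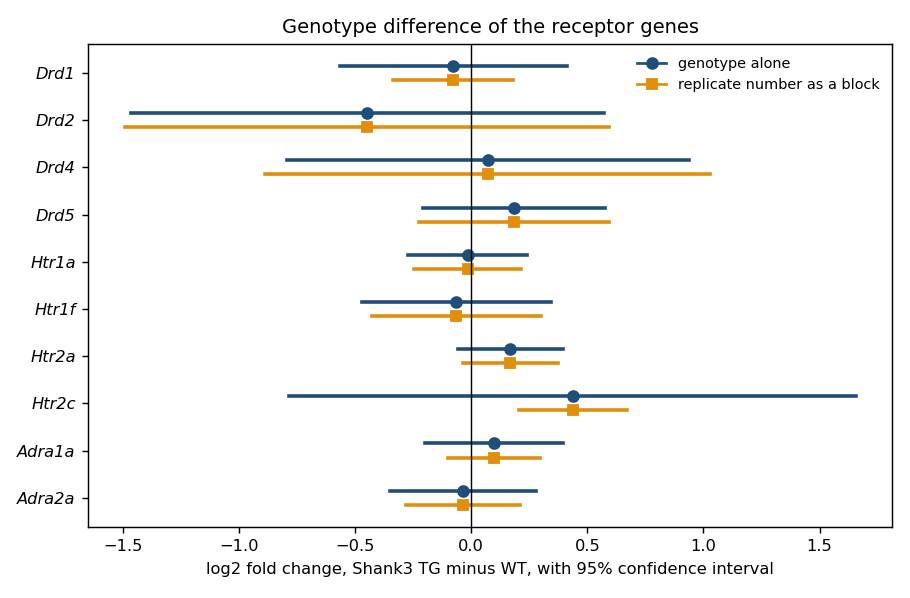
Log2FC of *Shank3* TG against WT with its 95% confidence interval from limma for the 10 receptor genes, with genotype alone in the model (blue) or with a block for the replicate number (orange). The blue intervals all include 0, and of the orange intervals that of *Htr2c*, from 0.20 to 0.67, lies above 0.

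*Htr2c* was far lower in the libraries numbered 3 than in the others of the same genotype. On the scale log2(normalized count + 1), the library numbered 3 differed from the mean of numbers 1 and 2 by -1.67 in TG and by -1.31 in WT. Of the 10 receptors, 1 was among the 0.556% of tested genes that were lower at number 3 by at least 1 in both genotypes. The spread of *Htr2c* within genotypes was 0.88 (SD of the residuals, log2), larger than that of 99.3% of the 12346 tested genes whose mean reached 100 normalized counts, whose median spread was 0.13. *Drd1* differed in the other direction, with the libraries numbered 3 higher by 0.56 in TG and 0.44 in WT, and its spread of 0.32 was larger than that of 92.6% of these genes. The other 4 receptors with a mean of at least 100, *Htr1a*, *Htr2a*, *Adra1a* and *Adra2a*, had spreads of 0.10 to 0.17, near the middle of that distribution.

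In the fit blocked on the replicate number, the SE of *Htr2c* dropped from 0.53 to 0.10, and its unadjusted p-value in limma's test was 0.0024, with an adjusted p-value of 0.491. With the block, 1 of the 10 receptors had an unadjusted p-value under 0.05, against 4.98% of all tested genes, and 0 of the 10 passed after adjustment, against 0.00598% of all tested genes (1 gene, *Shank3*). *Htr2c* and *Drd5* were higher in TG at each of the 3 numbers, as were 11.6% of all tested genes. Among the libraries numbered 1 and 2 alone, a comparison added after the values had been seen, the log2FC of *Htr2c* was 0.56 (SE 0.16, unadjusted p = 0.00841 and adjusted p = 1.00 in limma's test). Without the block, its log2FC was 0.99 without TG-3, 0.00 without WT-3, 0.067 without TG-1, 0.25 without TG-2, 0.74 without WT-1 and 0.57 without WT-2, so that single libraries of either genotype moved its size.

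**Figure D4:**
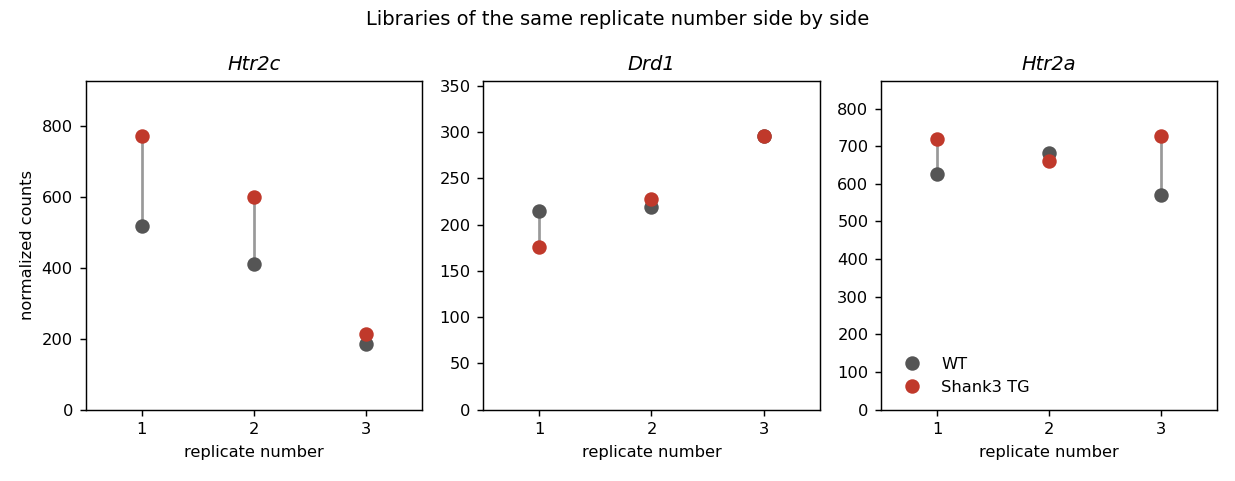
Normalized counts of *Htr2c*, *Drd1* and *Htr2a* by replicate number, with WT in grey and *Shank3* TG in red and a line joining the libraries of the same number. *Htr2c* is higher in TG at each number while both genotypes are low at number 3, the *Drd1* points coincide at number 3 (295 and 296), and *Htr2a* is higher in TG at numbers 1 and 3.

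Values of cell type markers stood beside these differences. Of the markers of the choroid plexus, an epithelium rich in *Htr2c*, *Folr1* had 7.87 ± 4.74 normalized counts in TG and 7.78 ± 0.556 in WT, and *Clic6* 10.9 ± 3.82 and 8.14 ± 5.47 (SD, n = 3). *Kcnj13*, of the same list, had 30.7 ± 2.42 normalized counts in TG and 21.4 ± 1.80 in WT (unadjusted p = 0.0598 in limma's test). Every TG library was above every WT library, as in 1 of the 9 tested genes of the list and 2.91% of all tested genes. *Prlr* had 23.6 ± 4.58 in TG and 62.9 ± 54.1 in WT, *Kl* 61.3 ± 3.08 and 66.3 ± 19.4, and *F5* 29.5 ± 7.88 and 28.8 ± 2.71. Of the 9 tested genes of the list, 6 had log2FC values above 0 and 3 below. The summed level of the 13 choroid plexus genes was 296, 201 and 692 in TG and 199, 191 and 371 in WT. It was highest at number 3 of both genotypes, where *Htr2c* was lowest, and higher in TG at each number, as *Htr2c* was. The higher sum in TG lay in *Ttr* alone. Without *Ttr*, the summed level of the list was not higher in TG at any number. *Ttr*, the thyroid hormone carrier and most abundant of the 13, had 127, 22.9 and 445 normalized counts in TG and 14.3, 12.6 and 41.7 in WT, and 0 of the 13 were at 0 in all libraries. Its limma log2FC was 2.42 (unadjusted p = 0.0382, and 0.000518 with the block, adjusted p = 1.00 and 0.350). Astrocyte markers were lower in the libraries numbered 3, with a median over 10 genes of -0.31 in TG and -0.27 in WT (log2). Layer 5 markers were higher there, with a median over 10 genes of 0.31 and 0.20, in the direction of *Drd1*. Choroid plexus markers were higher by more, with medians of 0.70 in TG and 0.57 in WT. The medians of layer 6 markers were 0.07 and 0.18, and those of layer 2/3 markers 0.03 and -0.04. Their part in the values of *Htr2c* and *Drd1* was not tested.

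Ratios of 2 receptors within a library do not depend on its scaling. Of the 45 ratios that the 10 genes allow, 2 did not overlap between the genotypes (4.44%), against 6.56% of the ratios of any 2 tested genes. The ratio of *Htr2a* to *Htr1a* per kb was 1.25, 1.34 and 1.40 in TG and 1.194, 1.15 and 1.16 in WT, a mean of 1.33 ± 0.0736 against 1.17 ± 0.0215 (SD, n = 3). The ratio of *Htr1f* to *Drd5* per kb was 1.43, 1.34 and 1.485 in TG and 1.52, 2.11 and 1.495 in WT, with TG-3 and WT-3 almost equal. Both ratios were named after their values had been seen. *Htr2c* per kb was 0.646, 0.546 and 0.176 of *Htr2a* in TG and 0.499, 0.363 and 0.196 in WT. The ratio was lowest at number 3 in both genotypes, and at numbers 1 and 2 both TG values were above both WT values.

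Summed per kb and by transmitter, the 4 serotonin receptors made up 59.9 ± 4.68% of the signal of the 10 genes in TG and 57.6 ± 5.08% in WT. The 4 dopamine receptors made up 18.4 ± 4.31% and 19.8 ± 3.66%, and the 2 adrenergic receptors 21.8 ± 1.43% and 22.6 ± 1.44% (SD, n = 3). These shares differed by less than the spread between libraries. By coupling, the 5 Gi-coupled receptors held 37.7%, 37.0% and 36.6% in TG and 40.0%, 41.6% and 39.5% in WT, without overlap. Their summed level itself overlapped, with 198, 193 and 180 normalized counts per kb in TG and 193, 210 and 183 in WT, while the Gq-coupled sum was 258, 242 and 209 in TG and 212, 216 and 178 in WT. The 3 Gq-coupled receptors held 46.0 ± 3.39% in TG and 41.7 ± 2.88% in WT, with overlap, and the 2 Gs-coupled receptors 16.9 ± 3.97% and 17.9 ± 3.55%. Of the shares by transmitter or coupling, only that of the Gi-coupled receptors did not overlap. Among single tested genes, 6.02% did not overlap. No p-value is given for these sums, since their members were put together with the values known.

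The genes shared a compact coding sequence and differed in structure around it. The coding length of the longest form lay between 1098 bases (*Htr1f*) and 1434 bases (*Drd5*). *Drd1*, *Drd5*, *Htr1a*, *Htr1f* and *Adra2a* have 1 coding exon in GENCODE M21, whereas *Htr2a* and *Adra1a* have 3, *Drd4* and *Htr2c* 4 and *Drd2* 7. The GC content of the longest protein-coding transcript ranged from 39.4% in *Htr1f*, 41.3% in *Htr2a* and 42.1% in *Htr2c* to 57.8% in *Drd4* and 58.6% in *Adra2a*.

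The genes with the most similar pattern over the 6 libraries were found by Pearson's correlation of log2(normalized count + 1), which describes these libraries only. For *Htr2c* they were *Podxl*, *Rnf4* and *Slc7a6* (r = 0.996, 0.992 and 0.991), but 552 tested genes had an r above 0.9. *Podxl* itself had 1014 and 1007 normalized counts in TG-3 and WT-3 against 1136 to 1256 in the others, a far smaller difference than that of *Htr2c*. For *Drd1* they were *Csn3*, *Gm9864* and *Rapgef6* (r = 0.994, 0.994 and 0.993), with 500 genes above 0.9. For *Htr2a* they were *Anxa11*, *Plpp6* and *Sphkap* (r = 0.987, 0.987 and 0.986), and 94 genes were above 0.9. Among the receptors themselves, *Drd1* and *Htr2c* ran in opposite directions (r = -0.95), while *Drd5* and *Adra1a* (r = 0.82) and *Htr2c* and *Adra2a* (r = 0.81) ran together over the same 6 libraries.

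The other genes of the monoamine pathway were examined in 4 lists with 79 genes in the table, of which 77 were tested. With limma, 0 of the 77 passed an adjusted p-value of 0.05, and 1, *Grk4*, had an unadjusted p-value under 0.05, a share below the 2.01% of all tested genes. Of the 17 other monoamine receptors in the table, 16 were tested, with 10 log2FC values above 0, 6 below and a median of 0.05. The most abundant were *Adrb1*, *Adra1d* and *Adra1b*, with log2FC values of 0.01, 0.08 and 0.10. *Adrb1*, the main beta receptor of cortex, had 1121, 851 and 1392 normalized counts in TG and 1049, 965 and 1278 in WT, so that it varied with the replicate number more than with the genotype. Among the smallest unadjusted p-values were those of *Htr4* and *Htr2b*. *Htr4*, a Gs-coupled serotonin receptor, had 10.4, 13.4 and 16.5 normalized counts in TG and 19.3, 20.3 and 20.7 in WT, without overlap (log2FC -0.57, SE 0.29, unadjusted p = 0.0884 in limma's test). *Htr2b* had at most 8.44 normalized counts in any library, and its groups overlapped.

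Of 17 genes of monoamine synthesis, transport and breakdown in the table, 16 were tested, 8 with log2FC values above 0 and 8 below (median 0.01). The degrading enzymes *Maoa* and *Maob* were among the abundant ones, with log2FC values of -0.05 and 0.02. Of the genes of the releasing neurons, *Tph2*, an enzyme of serotonin synthesis, had 15.3 to 30.9 normalized counts and *Slc6a3*, the dopamine transporter, at most 6.23, while *Slc18a2*, the vesicular monoamine transporter, had 97.1 to 121. *Ddc*, the decarboxylase of dopamine and serotonin synthesis, had 79.4, 78.3 and 172 normalized counts in TG and 106, 86.7 and 367 in WT. The TG library had the lower value at each number and number 3 the highest value of each genotype, with a log2FC of -0.55 (SE 0.55) and an unadjusted p-value in limma's test of 0.351 without the block and 0.0192 with it (adjusted p = 0.873 with it). *Slc29a4* and *Slc18a1*, which carry monoamines across membranes, had log2FC values of 0.20 and -0.36 with overlapping groups.

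All 27 G protein and effector genes in the table were tested, 20 with log2FC values above 0 and 7 below, between -0.10 and 0.17 (median 0.02). *Adcy9*, *Adcy1* and *Gnal*, which encode adenylyl cyclases and the G protein of D1-like receptors, had the smallest unadjusted p-values of this list, between 0.197 and 0.259 in limma's test. *Gnas*, with the highest mean, had 26916, 26547 and 47875 normalized counts in TG and 28403, 26072 and 51291 in WT, so it was high in both libraries numbered 3. All 18 genes of receptor desensitization and partners were tested, 11 with log2FC values above 0 and 7 below (median 0.01). *Grk4*, a kinase that phosphorylates active receptors, had 285, 318 and 294 normalized counts in TG and 340, 378 and 378 in WT, without overlap. The limma log2FC was -0.29 (SE 0.10, unadjusted p = 0.0226, adjusted p = 1.00). Of the 77 tested genes, 4 did not overlap between the genotypes, among them *Htr4*, *Grk4* and *Prkaca*, a share below the 6.02% of all tested genes.

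**Figure D5:**
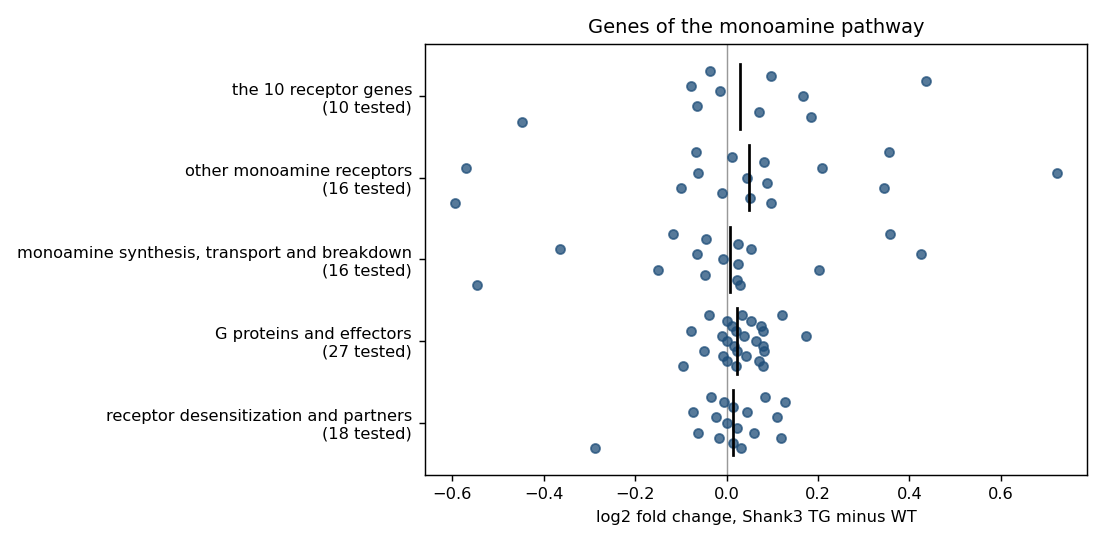
Log2FC of *Shank3* TG against WT for the tested genes of the 10 receptors and of 4 lists of the monoamine pathway, a point for each gene and a line for the median of each list. The medians lie between 0.01 and 0.05, and the widest points belong to genes with low counts such as *Htr2b* (0.72) and *Adra2b* (-0.59).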

How the data were processed

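Polyadenylated RNA of pooled mPFC was sequenced from stranded libraries. The authors quantified transcripts with Salmon 0.9.1 (GRCm38, corrected for GC bias), summarised them by gene through tximport in R 3.6.0, and divided by DESeq2 1.19.11 size factors. The deposited signal is these normalized counts, which are not whole numbers, so no counting error was computed. Gene names, positions and lengths came from GENCODE M21 (GRCm38) and covered 18231 of 18254 genes. The 16714 genes whose mean reached 5 normalized counts were compared on log2(normalized count + 1) in R 4.3.3 with limma 3.58.1 (genotype alone, eBayes with a trend, two-sided, Benjamini-Hochberg, threshold 0.05). The study's methods give 6 mice for each genotype, so the pools hold different mice, and p-values measure the spread between pools. They speak of pairs of samples without saying what a pair shares.

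The 10 receptors and all lists were chosen with earlier results of these data known. Beside the receptors, the text names *Shank3*, the 3 genes of a pathway list with the smallest p-values and the 3 with the highest means, up to 4 abundant genes of a marker list, and the 3 genes most correlated with a receptor. Some genes that this rule selects are not reported here. Other genes are named after their values were seen, which holds for *Folr1*, *Clic6*, *Kcnj13*, *Adora2a*, *Slc18a2*, *Prkaca* and *Adra2b*. The libraries carry the numbers 1 to 3 in both genotypes. Their deviations from the genotype means correlated across genes at 0.30, 0.33 and 0.62 for the same number and at most 0.27 otherwise, so the number was used as a block in an alternative fit. TG-1 with WT-2 had 0.27 and TG-2 with WT-1 0.23, little below the values of the same number. The correlations therefore set number 3 apart more than they pair numbers 1 and 2. The other alternatives were 2 pseudocounts, 2 filters, 2 scalings, 2 variance models, an empirical null, a term for the libraries numbered 3, each library left out, and other lengths. The fit was tested on simulated data.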

Additional observations from a re-analysis of the deposited data

How the results depend on the processing

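By limma's adjusted p-value, 0 receptors and 0 other pathway genes passed 0.05 under each alternative, including the replicate block. Over all genes the number was 0 with genotype alone. It was 1 with upper quartile scaling, the robust option, the replicate block, a number 3 term, and numbers 1 and 2 alone (added after the data were seen), and 26 with the empirical null, which divides the z-scores by their width. It ranged from 0 to 1 with each library left out. At an unadjusted p-value under 0.05 by limma, the receptor passing was *Htr2c* with the block (of all genes, 833 of 16714 passed), the term (717 of 16714), without TG-3 (353 of 16698) and with numbers 1 and 2 only (468 of 16634). With the empirical null it was *Htr2a* (limma, adjusted p = 0.609), beside 1215 of 16714 genes, and 0 passed otherwise. With numbers 1 and 2 only, *Drd4* had -0.044 and *Adra2a* 0.069. With each library left out, *Drd1* ranged from -0.26 to 0.11, *Drd4* from -0.067 to 0.21, *Htr1a* from -0.076 to 0.057, *Htr1f* from -0.16 to 0.066 and *Adra2a* from -0.10 to 0.10, while *Htr2c* ranged from 0.00 to 0.99, *Drd2* from -0.71 to -0.09, *Drd5* from 0.097 to 0.26, *Htr2a* from 0.10 to 0.23 and *Adra1a* from 0.016 to 0.20. *Drd2* and *Drd4* drop out at a mean of at least 50 normalized counts. In the order of levels, 5 of the 10 genes kept their place per kb of longest transcript and 6 per kb of coding sequence. The files give no raw counts, so the limit that depth sets was not computed.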

Other observations

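Some genes of the monoamine pathway were high in 1 or 2 of the 6 libraries, and they are given as values chosen after they were seen. *Th*, the enzyme that starts dopamine and noradrenaline synthesis, had 170 normalized counts in TG-2 and 38.1 to 64.9 in the other 5 libraries. TG-2 also had 720 normalized counts of *Cdhr1* and 149 of *Eomes*, genes of olfactory bulb neurons, against 39.2 to 100 and 4.41 to 30.6 in the others. *Slc6a2*, the noradrenaline transporter, reached 75.9 in TG-1 and 53.8 in WT-2 (normalized counts), and at most 0.987 in each of the other 4 libraries. *Gnao1*, the G protein subunit through which D2-like and other Gi/o-coupled receptors act, had 26141 and 26356 normalized counts in TG-3 and WT-3 and 17613 to 18601 in the others, the direction opposite to that of *Htr2c*.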
